A study of Mus musculus with 2 samples.

Results

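The microRNA genes Mir15a, Mir16-1, Mir15b, Mir16-2, Mir497 and Mir195a form a family whose mature products share a seed, the short stretch near the 5′ end through which a microRNA pairs with its target messenger RNAs. The members were selected by symbol, from the gene identifiers of the count files and the GENCODE M21 annotation, and all 6 were found among 2202 microRNA genes. The genes lie in 3 clusters, each a pair of hairpins close together on 1 strand. Small RNA was sequenced from whole heart of male mice aged 2 months, of the strain B6CASTF1/J, a first-generation hybrid of C57BL/6J and CAST/EiJ. The 2 libraries make up 1 group of 2 replicates, with no treatment, mutant or other tissue to compare. The labels give both libraries 1 donor identifier and describe them as different males.

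MicroRNAs of this family are known as brakes on the cell cycle and on survival proteins. Their known targets include cyclins and the anti-apoptotic protein Bcl2, and the human counterparts of Mir15a and Mir16-1 are known for their deletion in chronic lymphocytic leukaemia. In the mouse heart, miR-195 and its relatives are known to rise after birth, when heart muscle cells leave the cell cycle. A primary transcript that carries both hairpins of a cluster is cut by Drosha and then Dicer, so that neighbours share transcription but are processed and degraded separately.

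The mature 5p sequences are shown because the members share a seed and because 1 of these sequences comes from 2 genes. They are RefSeq sequences on GRCm38.p6, written 5′ to 3′, with the seed (bases 2 to 8) in capitals.
miR-15a-5p: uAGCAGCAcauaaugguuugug
miR-15b-5p: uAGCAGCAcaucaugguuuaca
miR-16-5p, from Mir16-1 and Mir16-2: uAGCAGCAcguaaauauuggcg
miR-195a-5p: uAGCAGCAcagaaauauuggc
miR-497a-5p: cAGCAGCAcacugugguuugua
All 6 genes carried the seed AGCAGCA in the 5p arm, and bases 2 to 9 were identical in the 5 distinct sequences. Counted from the 5′ end, miR-16-5p and miR-195a-5p differed at 2 of 21 positions (G10A and U11G, the base of miR-16-5p first). The sequences of miR-15a-5p and miR-15b-5p differed at 4 of 22 positions (A12C, G20A, U21C and G22A, the base of miR-15a-5p first). The product of Mir497 begins with C, where the other members begin with U.

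Mir16-1 and Mir16-2 make the same 5p product from different hairpins. The RefSeq hairpins are shown with the longest stretch they share in capitals.
Mir16-1 hairpin: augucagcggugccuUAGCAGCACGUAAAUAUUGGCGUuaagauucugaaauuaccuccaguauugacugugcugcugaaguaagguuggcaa
Mir16-2 hairpin: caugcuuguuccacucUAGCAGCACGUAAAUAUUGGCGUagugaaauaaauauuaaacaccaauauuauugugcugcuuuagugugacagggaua
The shared stretch is 23 bases long and holds the whole 22-base mature 5p sequence. The files count a read that maps to several places in a row of its own and in no gene. A read of exactly miR-16-5p therefore enters neither gene, and the counts of Mir16-1 and Mir16-2 are of other reads, such as those of the 3p arm or those that run past the shared stretch. The counts do not separate these reads. The 3p products of these genes differ at 10 of 22 positions and can be told apart.
miR-16-1-3p: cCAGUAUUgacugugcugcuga
miR-16-2-3p: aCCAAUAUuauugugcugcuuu
No other member shared its 5p sequence with a hairpin at another place, and the longest shared stretch of Mir15a, Mir15b, Mir497 and Mir195a with any such hairpin was 13, 12, 12 and 16 bases. This search covered microRNA hairpins only, not the whole genome. Levels of the miR-16 genes therefore leave out reads of their shared product and cannot be ranked against the other members.

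The libraries held 10362589 reads in replicate 1 and 10483233 reads in replicate 2, of which 3650782 and 3810675 lay on the strand of a microRNA gene. Reads mapped to several places numbered 4968988 and 4868319, which was 48.0% and 46.4% of all reads. Levels are given as CPM, counts per 1000000 counts on microRNA genes. Intervals are exact Clopper-Pearson 95% intervals and cover counting error only. The heart muscle genes Mir208a, Mir208b and Mir499, which lie in myosin introns, were detected in both libraries, with summed levels of 3954 CPM (replicate 1) and 6890 CPM (replicate 2). Mir208a was at 1329 and 4265 CPM and Mir208b at 24.7 and 118 CPM, while Mir499 was at 2600.5 and 2506.9 CPM. In whole tissue, fewer cells of a type and less RNA per cell cannot be told apart.

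Together the 6 genes held 0.673% of the microRNA counts in replicate 1 (interval 0.665 to 0.682) and 0.834% in replicate 2 (0.825 to 0.843), a mean of 0.753% ± 0.114 (SD, n = 2). The 24572 and 31778 counts behind these shares are few beside the reads mapped to several places, which were 202 and 153 times as many and include any read of exactly miR-16-5p. The share given here leaves those reads out. Every member passed 2 CPM in both libraries, as did 337 of the 2202 genes, and every member passed the low-count filter.

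Mir15b, on chromosome 3 from 69009772 to 69009835 of mm10 on the plus strand, was the most counted member. It lies in an intron of Smc4, the gene of a condensin subunit that compacts chromosomes in mitosis. It had 12228 counts and 3349 CPM in replicate 1, against 8604 counts and 2258 CPM in replicate 2, a mean of 2804 CPM ± 772 (SD, n = 2). It ranked 36 among all microRNA genes by mean level. Its partner Mir16-2, on chromosome 3 from 69009902 to 69009996 and 66 bases downstream in the same intron, was the least counted member, without the reads of exactly miR-16-5p. It had 606 counts and 166 CPM in replicate 1, against 265 counts and 69.5 CPM in replicate 2, a mean of 118 CPM ± 68.2 (SD, n = 2).

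Mir15a lies on chromosome 14 from 61632027 to 61632110 on the minus strand, within an intron of the long noncoding RNA gene Dleu2. It had 3183 counts and 872 CPM in replicate 1, against 8036 counts and 2109 CPM in replicate 2, a mean of 1490 CPM ± 875 (SD, n = 2). The libraries thus differed in the direction opposite to that of Mir15b. Mir16-1, from 61631880 to 61631972 and 54 bases downstream of Mir15a, overlaps an exon of an annotated Dleu2 transcript. It had 2530 counts and 693 CPM in replicate 1, against 1022 counts and 268 CPM in replicate 2, a mean of 481 CPM ± 300 (SD, n = 2).

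Mir497 and Mir195a lie on the plus strand of chromosome 11, from 70234717 to 70234800 and from 70235042 to 70235135, 241 bases apart, with no gene of the annotation spanning them on that strand. Mir497 had 1926 counts and 528 CPM in replicate 1, against 7824 counts and 2053 CPM in replicate 2, a mean of 1290 CPM ± 1079 (SD, n = 2), the widest spread relative to the mean among the 6 genes. Mir195a, the source of the miR-195 known from the postnatal heart, had 4099 counts and 1123 CPM in replicate 1, against 6027 counts and 1582 CPM in replicate 2, a mean of 1352 CPM ± 324 (SD, n = 2). Both genes of this cluster were lower in replicate 1.

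**Figure D1:**
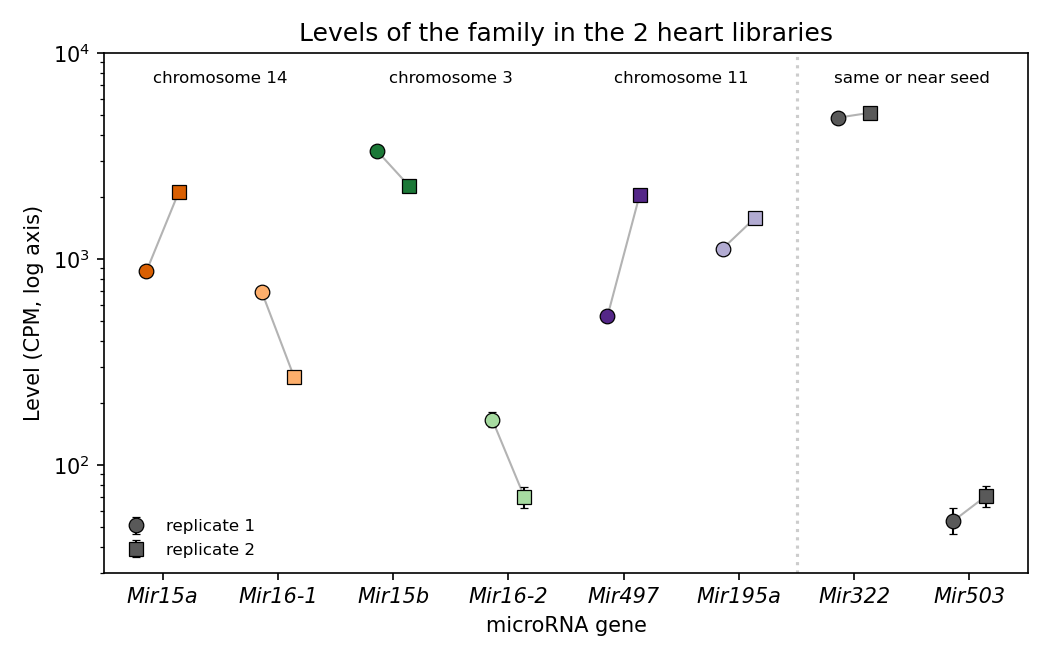
Level in CPM (log axis) of the 6 family genes and, right of the dotted line, of Mir322 and Mir503, with replicate 1 as circles, replicate 2 as squares and exact 95% counting intervals as bars, most of them smaller than the symbol. Mir15b, Mir16-1 and Mir16-2 stand higher in replicate 1, and Mir15a, Mir497 and Mir195a stand higher in replicate 2. The levels of Mir16-1 and Mir16-2 leave out reads of exactly the mature product that these genes share and cannot be ranked against the others.

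Among the 4 members with a mature sequence of their own, the order by mean level was Mir15b, Mir15a, Mir195a and Mir497. Mir15b was above Mir15a in both libraries, by 1.94 on the log2 scale in replicate 1 and by only 0.10 in replicate 2. The ranges of Mir15a, Mir195a and Mir497 overlapped, so their order does not exceed the spread. Mir195a was above both of the others in replicate 1 and below both in replicate 2, while Mir15a was above Mir497 in both libraries, by 0.72 and 0.04 on the log2 scale. Of the miR-16 genes, which are not placed in this order, Mir16-1 was above Mir16-2 in both libraries.

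**Figure D2:**
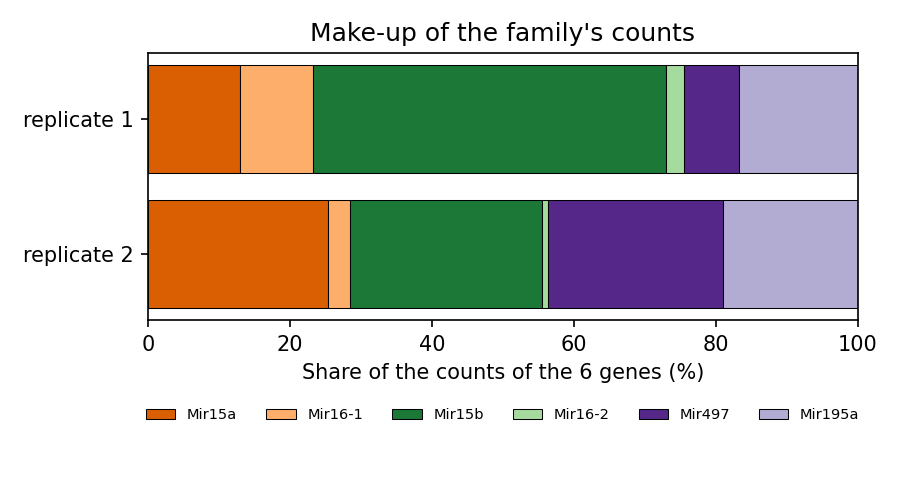
Share of the family's counts (percent) held by each of the 6 genes in replicate 1 (top bar) and replicate 2 (bottom bar). Reads mapped to several places, such as any read of exactly the mature product that Mir16-1 and Mir16-2 share, are left out. Mir15b takes 49.8% in replicate 1 and 27.1% in replicate 2, while Mir497 takes 7.84% and 24.6%.

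The make-up of the family's counted reads differed between the libraries by more than counting error. Reads of exactly the mature product that Mir16-1 and Mir16-2 share are missing from these counts. The shares are therefore of counted reads only and do not rank Mir16-1 and Mir16-2 against the other members. The Mir15b and Mir16-2 cluster held 52.2% of the family's counts in replicate 1 (interval 51.6 to 52.9) and 27.9% in replicate 2 (27.4 to 28.4). The Mir497 and Mir195a cluster held 24.5% (24.0 to 25.1) in replicate 1 and 43.6% (43.0 to 44.1) in replicate 2. The Mir15a and Mir16-1 cluster had the closest shares of the 3 clusters, 23.3% in replicate 1 and 28.5% in replicate 2, although its 2 genes moved apart. Relative to its mean, the share of Mir195a differed least among the 6 genes, at 16.7% in replicate 1 and 19.0% in replicate 2.

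Counts of replicate 1 were set against those of replicate 2 with an exact two-sided binomial test on edgeR's TMM library sizes, with Benjamini-Hochberg adjustment over 320 genes. The test compares these libraries with counting noise and not conditions, and 206 genes, 64.4% of those tested, passed it. All 6 members passed, 3 higher and 3 lower in replicate 1, where 33.8% of all genes were higher and 30.6% lower. With a background this high, the count of members says little about the family. Over all tested genes the median absolute log2 ratio was 0.44 and the median log2 ratio was -0.02.

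**Figure D3:**
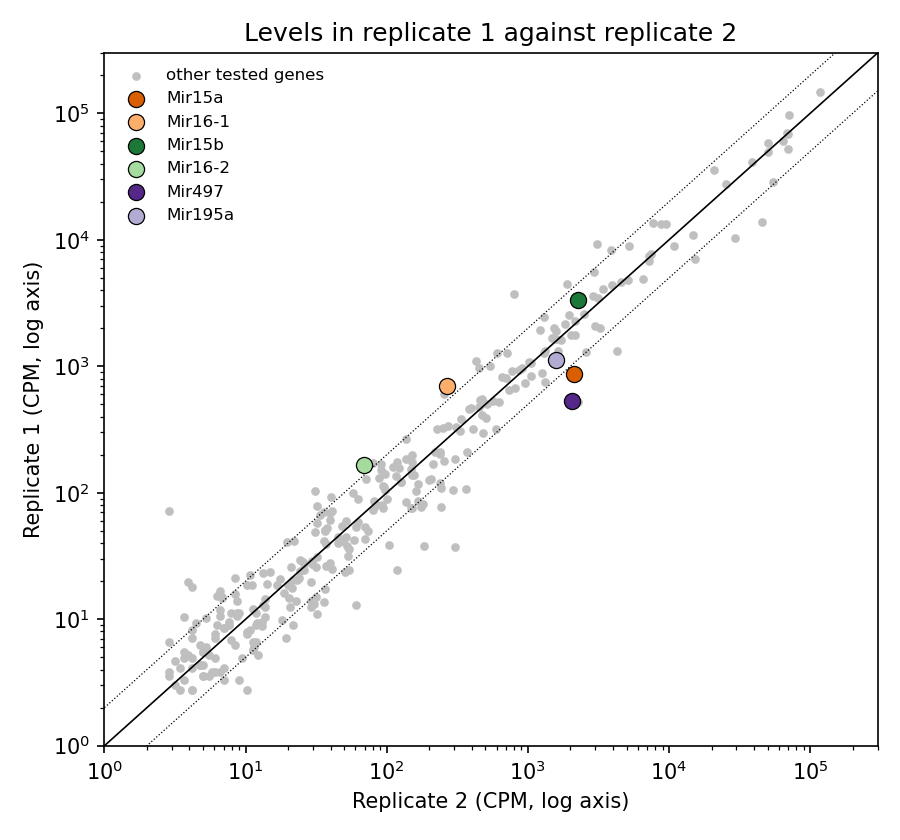
Level in replicate 1 against level in replicate 2 (CPM, log axes) for the genes tested, with the 6 members in colour, the line of equality solid and ratios of 2 in either direction dotted. Mir16-1 and Mir16-2 lie above the upper dotted line and Mir15a and Mir497 below the lower one. The points of Mir16-1 and Mir16-2 leave out reads of exactly the mature product that these genes share.

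Mir497 had the widest difference of the family, at 0.259 times its replicate 2 level in replicate 1 (log2 ratio -1.95, exact binomial test, adjusted p at or below 1e-300), and ranked 10 of 320 genes by absolute ratio. Mir15a was at 0.417 times (log2 ratio -1.26, exact binomial test, adjusted p at or below 1e-300) and Mir195a at 0.716 times (log2 ratio -0.48, adjusted p = 3.72e-61). In the other direction, Mir16-1 was 2.61 times higher in replicate 1 (log2 ratio 1.38, exact binomial test, adjusted p = 3.57e-162). Mir16-2 was 2.41 times higher (log2 ratio 1.27, adjusted p = 7.10e-35) and Mir15b had the smallest difference of these 3 (log2 ratio 0.58, exact binomial test, adjusted p = 7.99e-183). By absolute ratio Mir16-1, Mir16-2 and Mir15a ranked 25, 32 and 33 of 320, and Mir15b and Mir195a ranked 127 and 152. The biological coefficient of variation over the 320 genes was 0.370 in edgeR.

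Cell type markers also differed between the libraries, and their part in these differences was not tested. Mir206, the only gene listed for skeletal muscle, was at 37.0 CPM in replicate 1 and 303 CPM in replicate 2. Its neighbour Mir133b was low, at 6.03 and 5.25 CPM, and did not share this difference. The endothelial gene Mir126a was at 52212 and 70228 CPM. The 4 leukocyte genes Mir150, Mir142, Mir223 and Mir155 were all detected and had a summed level of 8970 CPM (replicate 1) and 7190 CPM (replicate 2). The red blood cell genes summed to 3222 and 2960 CPM with 3 of 3 detected, and the smooth muscle genes to 54611 and 53284 CPM with 2 of 2 detected. Genes within these sums went both ways. Mir451a was at 1925 and 1217 CPM, Mir144 at 411 and 477 CPM and Mir486 at 885 and 1267 CPM. In smooth muscle, Mir145a was at 5530 and 2953 CPM and Mir143 at 49081 and 50331 CPM. The 6 neuronal genes had a summed level of 27.9 CPM (replicate 1) and 0.525 CPM (replicate 2), with 4 of them at 0 in both libraries and none at 2 CPM in both. The 5 epithelial genes summed to 373 and 295 CPM and the liver gene Mir122 was at 142 and 97.9 CPM.

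The ratio of neighbouring genes was taken within each library, where it does not depend on scaling. Mir15a was 1.26 times Mir16-1 in replicate 1 and 7.86 times in replicate 2, with log2 ratios of 0.33 and 2.97 and a mean of 1.65 ± 1.87 (SD, n = 2). Mir15a made up 55.7% of the pair's counts in replicate 1 (interval 54.4 to 57.0) and 88.7% in replicate 2 (88.0 to 89.4). Mir15b was 20.2 times Mir16-2 in replicate 1 and 32.5 times in replicate 2, and the log2 ratio averaged 4.67 ± 0.48 (SD, n = 2). In both clusters the miR-15 gene stood above the miR-16 gene in both libraries, but the reads of exactly miR-16-5p are missing from the lower count. Mir497 was 0.470 times Mir195a in replicate 1 and 1.30 times in replicate 2, with log2 ratios of -1.09 and 0.38, so the order of these neighbours turned between the libraries. No ratio was tested against 0, because an exact permutation of signs over 2 libraries cannot give a two-sided p below 0.5.

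**Figure D4:**
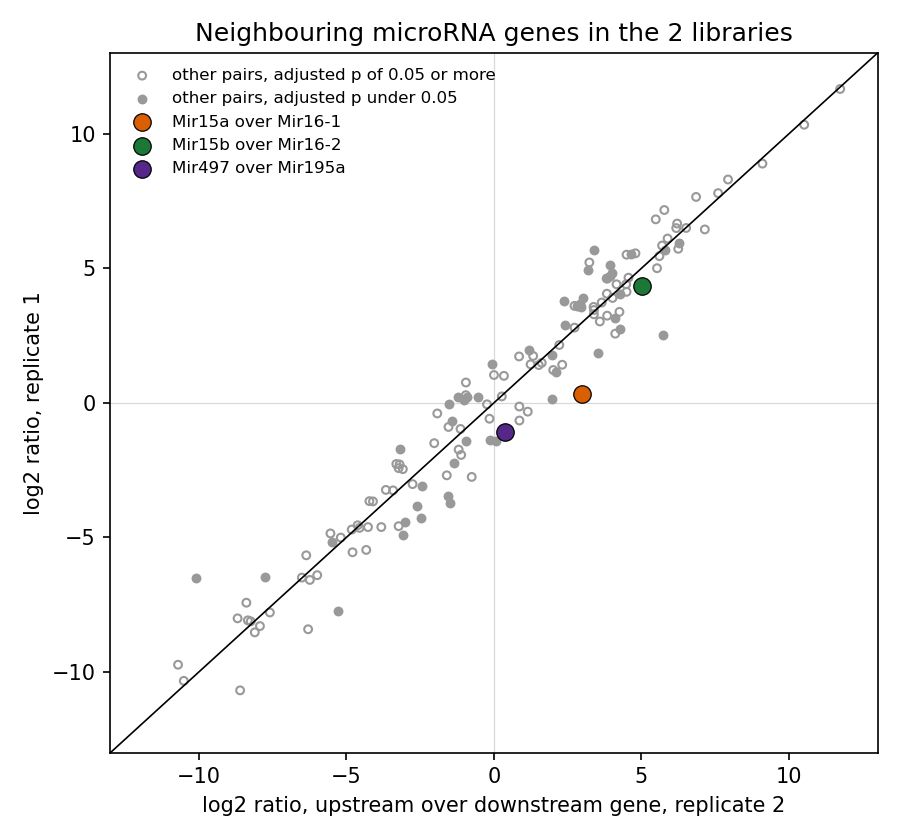
Log2 ratio of the upstream over the downstream gene in replicate 1 against that in replicate 2 for 147 pairs of neighbouring microRNA genes, with filled points for pairs that pass Fisher's exact test, the 3 family clusters in colour and the line of equality solid. Mir15a over Mir16-1 lies far below the line, at 0.33 in replicate 1 and 2.97 in replicate 2. The counts of Mir16-1 and Mir16-2 leave out reads of exactly the mature product that these genes share.

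Whether the division of a pair's counts differed between the libraries was tested with Fisher's exact test for all 147 adjacent pairs within 10 kb that had at least 20 counts, with Benjamini-Hochberg adjustment over the pairs. The test passed for 50 pairs, 34.0%, and for all 3 family clusters. It gave an adjusted p at or below 1e-300 for Mir15a and Mir16-1, 3.28e-224 for Mir497 and Mir195a and 4.56e-10 for Mir15b and Mir16-2. These tests again compare 2 libraries and not conditions. Among pairs with at least 100 summed counts, 52 of 113 passed. With a background this high, the number of family clusters that passed says little about the family. Reads of exactly the mature product that Mir16-1 and Mir16-2 share enter neither gene. For the pairs with these genes, the tests and changes therefore concern the division of the counted reads only. The log2 ratio of Mir15a over Mir16-1 was lower in replicate 1 by 2.64, the change with rank 3 of the 147 pairs, where the median absolute change was 0.74 and 8 pairs changed by more than 2. For Mir497 over Mir195a the difference of replicate 1 minus replicate 2 was -1.47, rank 26, and for Mir15b over Mir16-2 it was -0.68, rank 79. Mir15a and Mir16-1 each passed the binomial test in opposite directions, as did the genes of 20 of the 75 pairs with both genes tested, 26.7%.

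The duplicated genes of miR-16 had close ratios in the libraries, although both genes were higher in replicate 1. Reads of exactly miR-16-5p enter neither count, so the ratio does not measure how much of that product each copy makes. Mir16-1 was 4.17 times Mir16-2 in replicate 1 and 3.86 times in replicate 2, with log2 ratios of 2.06 and 1.94 and a mean of 2.00 ± 0.08 (SD, n = 2). Mir16-1 made up 80.7% of the counts of the pair in replicate 1 (interval 79.3 to 82.0) and 79.4% in replicate 2 (77.1 to 81.6), and these intervals overlap. Among 21 pairs of microRNA genes that share a mature sequence and had at least 20 counts each, the change of 0.12 ranked 5 from the smallest, against a median of 0.50. The ratio of the related genes Mir15a and Mir15b, whose mature sequences differ, was further apart. Mir15a was 0.260 times Mir15b in replicate 1 and 0.934 times in replicate 2, and the log2 ratio of replicate 1 minus that of replicate 2 was -1.84.

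**Figure D5:**
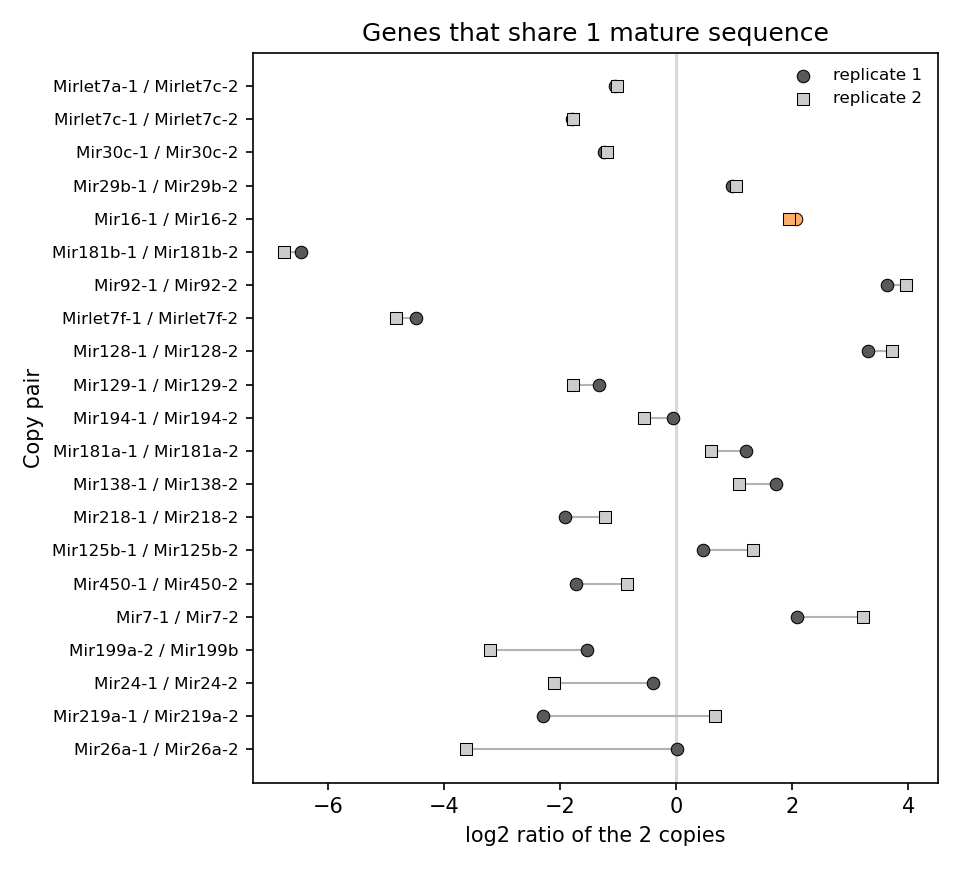
Log2 ratio of the copies in replicate 1 (circles) and replicate 2 (squares) for 21 pairs of genes that share a mature sequence, ordered from the smallest change at the top, with the miR-16 pair in orange. The miR-16 pair has ratios of 2.06 and 1.94, which lie close together.

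The seed AGCAGCA occurred in 11 mature sequences from 11 genes among 1738 mature sequences of the RefSeq table. Besides the 6 members these were Mir322, Mir195b, Mir6342, Mir6353 and Mir6419. Mir322, on the X chromosome from 53054255 to 53054349 and the mouse counterpart of human miR-424, was the only one of these 5 with counts.
miR-322-5p: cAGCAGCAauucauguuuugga
The 6 members had a summed level of 6731 CPM (replicate 1) and 8339 CPM (replicate 2), while Mir322 alone was at 4853 and 5127 CPM, above Mir15a, Mir15b, Mir195a and Mir497 in both libraries. Mir322 made up 41.9% of the counts of the genes with this seed in replicate 1 (interval 41.4 to 42.4) and 38.1% in replicate 2 (37.7 to 38.5). Reads of exactly miR-16-5p are missing from the counts of the other genes, so the share of Mir322 is of counted reads only. These are counts of whole hairpins, and both arms add to them. Its log2 ratio of replicate 1 over replicate 2 was -0.07 (exact binomial test, adjusted p = 2.51e-05), rank 294 of 320, so it was among the steadier genes.

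Mir503, 200 bases from Mir322 and with the seed AGCAGCG, was at 53.4 CPM in replicate 1 and 70.3 CPM in replicate 2. Mir195b, whose hairpin on chromosome 2 shares 16 bases with that of Mir195a, had no count in either library, nor had Mir1907. The limit that a count of 0 allows, taken as 3 counts per library, was 0.822 CPM (replicate 1) and 0.787 CPM (replicate 2). Mir497b overlaps Mir497 on the opposite strand and also had no count on its own strand. Of the listed genes Mir322, Mir503, Mir195b, Mir497b and Mir1907, 2 were detected, Mir322 and Mir503. The mature sequence of Mir497b has another seed, ACCACAG. Mir322 and Mir503 together held 0.491% of the counts in replicate 1 and 0.520% in replicate 2.

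The gene outside the family nearest to each member in level was found by Euclidean distance of log2(CPM + 1) over the 2 libraries. Mir214 was nearest to Mir497, at a distance of 0.15, with 519 CPM in replicate 1 and 2269 CPM in replicate 2. Mir16-1 was nearest to Mir1839 and Mir16-2 to Mir130b, at distances of 0.22 and 0.21. Both of those genes were higher in replicate 1, which follows from choosing them by closeness in both libraries. Mir195a was nearest to Mir423 at 0.24, Mir15b to Mir320 at 0.36 and Mir15a to Mir27a at 0.65. Over 2 libraries such closeness describes level and ratio only.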

How the data were processed

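The 2 small RNA libraries of heart were analysed. The authors deposited raw read counts per microRNA gene, 1 file without a header per library; per the deposited text beside each file, the assembly is mm10 with GENCODE M21. The name and settings of the aligner are not given in the sources used here. A file has 3 count columns (no strand, sense and antisense) and 4 rows that name no gene, which held 64.8% of the reads in replicate 1 and 63.6% in replicate 2 and entered neither library sizes nor tests. The sense column was used. CPM were computed over all gene rows. Ratios of genes used CPM + 0.5.

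TMM library sizes, the low-count filter filterByExpr and the coefficient of variation came from edgeR 4.0.16 in R 4.3.3, and DESeq2 1.42.0 gave alternative size factors. A quasi-likelihood test has no residual degrees of freedom between 2 libraries, so exact binomial and Fisher's exact tests were computed with R and SciPy 1.17.1 in Python 3.11.15, adjusted by Benjamini-Hochberg and called under 0.05. Adjusted p below 1e-300 are printed as that value. Both tests were checked on simulated counts that held counting noise and set folds only, without the wider spread seen between these libraries. Mature and hairpin sequences are RefSeq's (GRCm38.p6); 5 of 6 member hairpins were in that table, each with the position and sequence of GENCODE, and the mature sequences of all 6 were. Shared stretches were searched in the GENCODE hairpins on either strand.

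Members, lists and tests were chosen with earlier results of these data known. Genes were named as members, genes with the seed, overlapping genes, the gene nearest in level to each member, host genes and marker genes. The marker list's miR-124 genes were matched as Mir124a-1, Mir124a-2 and Mir124a-3. Nothing but the descriptions and biological replicate numbers says that the libraries come from separate animals, so the spread may be technical. Alternatives were the column without strand, other denominators, pseudocounts, scalings, filters, distances and stretch lengths, and each replicate left out.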

Additional observations from a re-analysis of the deposited data

Results flagged for a closer look

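The opposite-strand column, which entered no comparison, held 1926 counts for Mir497b in replicate 1 and 7824 in replicate 2. These stood out because they exceed the limit of 3 counts in a column outside the main measurement. They equal the counts of Mir497 on its own strand, which Mir497b overlaps. No other member or listed gene had a count on its opposite strand.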

How the results depend on the processing

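No paired analysis was possible because the libraries form 1 group. The family's mean share of counts was 0.753%, and was 0.867% without the most abundant gene in the total and 0.308% over all mapped reads; it ranged from 0.673% to 0.834% with either replicate left out. The mean log2 ratio of Mir497 over Mir195a, -0.36, became -11.8 in the column without strand, where Mir497 has 0 counts because Mir497b overlaps it, and was -1.09 without replicate 2 and 0.38 without replicate 1, so its sign rests on 1 library. Without replicate 2 and without replicate 1, that of Mir15a over Mir16-1 was 0.33 and 2.97, and that of Mir15b over Mir16-2 was 4.33 and 5.01. Without strand, 32 of 143 neighbour pairs differed between the libraries, and 33 of 103 did with neighbours at most 1 kb apart, against 50 of 147. The family clusters passed in each of these settings, except Mir497 with Mir195a without strand. Genes that differed numbered 176 to 213 under the other scalings, filters and columns. Their share was 29.5% of 722 genes without the low-count filter and 73.9% of 238 genes at 10 CPM or more, against 64.4% of 320, as the number tested changed. Members kept their direction and call wherever they were tested (Mir497 has no test without strand). The members that share sequence with a hairpin elsewhere numbered 2 at each stretch length. More depth would not recover reads of exactly miR-16-5p.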

Other observations

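The sum of Mir15a and Mir15b was 4221 CPM in replicate 1 and 4367 CPM in replicate 2, a ratio of 0.967, although each of these genes differed between the libraries. The sum of Mir16-1 and Mir16-2 was 859 CPM in replicate 1 and 338 CPM in replicate 2, a ratio of 2.54. That sum leaves out reads of exactly the mature product that Mir16-1 and Mir16-2 share. It therefore does not give the level of that product and cannot be set against the sum of Mir15a and Mir15b. Both sums were chosen after their values were seen and were not tested.

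The neighbour pairs that changed more than Mir15a and Mir16-1 were Mir199a-2 with Mir214, by 3.59 on the log2 scale, and Mir206 with Mir133b, by -3.20 (replicate 1 minus replicate 2). Each holds a gene with few counts: Mir199a-2 had 19 and 6 counts, and Mir133b was at 6.03 and 5.25 CPM, in replicates 1 and 2. Mir381 with Mir487b changed by -2.23 and Mir106b with Mir93 by -1.93. Like Mir15a with Mir16-1, both pairs had genes that passed the exact binomial test in opposite directions. These pairs were also named after their values were seen.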
